A study of Homo sapiens with 6 samples.

Results

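The KLF and SOX genes are 2 families of transcription factors. Members were taken as the protein-coding genes of the authors' deposited count table whose symbol is KLF or SOX followed by digits only. This gave 36 members, 17 KLF and 19 SOX genes, of 52401 genes in all. All samples are MCF10A cells, an immortalised, non-tumorigenic human mammary epithelial line, grown in medium with horse serum, insulin, EGF, hydrocortisone and cholera toxin. The control line received 1 retroviral vector for the fluorescent protein mCherry and was selected with puromycin. The flotillin line received 2 retroviral vectors, for flotillin-1-HA and flotillin-2-mCherry, and was selected with puromycin and hygromycin. Flotillins are scaffold proteins of membrane microdomains. PolyA RNA was sequenced in 3 libraries per line. The comparison asks how expression differs when both flotillins are raised together. Each group is a single line, so the level of the flotillins cannot be told apart from the number of vectors or from hygromycin. Nothing in the labels says that the libraries of a line are separate cultures or that a line is a pool or a clone, and p-values measure the spread between these libraries, which may be technical.

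KLF proteins bind GC boxes and CACCC boxes through C-terminal zinc fingers, and differ in the cofactors that their N-terminal parts recruit. One subgroup binds the corepressor CtBP, another binds the corepressor SIN3A, and a further subgroup acts mostly as activators. SOX proteins bind a short AT-rich element through an HMG box and bend DNA, and are sorted into subgroups A to H by that box. In epithelia, KLF4 and KLF5 are known for differentiation and proliferation, while SOX9 and SOX4 are known from progenitor cells.

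Normalized counts are reads divided by the authors' size factors. They were deposited as group means, from which the reads of each library were solved, so values below are given for libraries 1, 2 and 3 of each line, numbered from the largest size factor to the smallest. SDs are over these 3 libraries. Folds in normalized counts are ratios of group means. Log2 values of the authors' deposited table are the authors' own estimates. Their size was at a median 0.937 times that of the log2 ratio of the means. A fold and the log2 value beside it therefore need not match. The libraries hold between 17445130 and 18629354 reads in the 52229 genes that could be solved, which include every KLF and SOX gene. FLOT1 and FLOT2, the introduced genes, were 11.4-fold and 11.0-fold higher in the flotillin line between the authors' group means. Library 3 stood apart in both groups. The summed level of 6 proliferation markers was 5345, 12513 and 49393 normalized counts in the control libraries and 12892, 11701 and 54736 in the flotillin libraries. Across 15839 genes with a mean of at least 10, library 3 was the lowest or the highest of its group in both groups for 52.7%. The called KLF and SOX genes with a mean of at least 10 are therefore also given without library 3 of both groups. Genes of the marker, relative, partner and target lists are given with all libraries only.

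The labelled cell type was checked by marker lists. The 11 basal mammary markers were all detected, and 9 fell in the authors' deposited table, among them TP63, the basal lineage factor, from 1765 ± 424 to 25.6 ± 13.6 normalized counts (SD, n = 3). The basal genes KRT5 (48381 and 67351) and ITGB4 (25684 and 24895) stayed high in both lines without passing. Of 8 tested luminal markers 3 fell, among them EPCAM from 4607 to 81.0 normalized counts. The luminal genes MUC1 (12384 and 9432), KRT8 (2043 and 3494) and GATA3 (274 and 335) were detected in both lines without passing. KRT18, PGR and KIT are listed at 0 in both groups, and for KRT18, the partner of KRT8, that 0 is doubtful. Among fibroblast markers 3 rose and 1 fell of 6 tested, with THY1 at 0, and the summed level of the 8 solved markers ran from 553 to 1184 in control and from 494 to 1939 in flotillin libraries. That sum leaves out DCN, the decorin gene, which was not solved in flotillin cells and rose 9.12-fold between the authors' group means, from 4659 to 42467 (adjusted p = 3.01e-07 in the authors' deposited table). Immune markers had 3 falls among 5 tested, with CD3E at 0. Of 5 matched endothelial markers 2 were tested and 0 passed, and of 5 matched melanocyte markers MITF alone rose, with TYR and S100B at 0. The part of these cell types in the results below was not tested. In bulk RNA, fewer cells of a type and less RNA per cell cannot be told apart.

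Stretches upstream of KLF8 and KLF9 are shown, the called members with a matched window that overlaps no GENCODE exon. KLF8 fell and KLF9 rose, as described below. Each line gives the 250 bases before a RefSeq gene start (GRCh38.p14), 5′ to 3′ on the gene's strand, with CACCC or its reverse complement GGGTG, and GGGCGG or its reverse complement CCGCCC, in capitals. For KLF8 it is chrX:56232106-56232355 on the plus strand, the first of its 4 listed starts whose window overlaps no exon. For KLF9 it is chr9:70414658-70414907 on the minus strand.
KLF8: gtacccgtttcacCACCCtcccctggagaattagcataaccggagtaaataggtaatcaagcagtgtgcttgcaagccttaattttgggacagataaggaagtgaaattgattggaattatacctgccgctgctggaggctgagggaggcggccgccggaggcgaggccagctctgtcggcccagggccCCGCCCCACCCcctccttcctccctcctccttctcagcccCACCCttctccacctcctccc
KLF9: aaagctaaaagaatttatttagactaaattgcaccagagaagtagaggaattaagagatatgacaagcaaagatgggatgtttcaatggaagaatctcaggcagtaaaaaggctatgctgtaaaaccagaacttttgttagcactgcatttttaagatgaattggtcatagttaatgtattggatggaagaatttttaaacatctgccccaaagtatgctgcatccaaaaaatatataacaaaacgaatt
The KLF8 stretch is 58.8% G and C, with 3 matches to CACCC and 1 to GGGCGG; the GGGCGG match, read as CCGCCC, directly adjoins a CACCC match. The KLF9 stretch is 32.4% G and C, with 0 matches to either. Other called members, whose windows overlap an exon, did not follow this pair. KLF11, which fell, has 0 matches to CACCC and 2 to GGGCGG. SOX4, which fell, has 0 matches to either, and SOX5, which rose, has 1 to each. Of 35116 promoters in the table, 54.7% hold CACCC and 42.6% hold GGGCGG on either strand in these 250 bases. Of the 25 KLF and SOX genes matched by symbol, 11 hold CACCC and 17 hold GGGCGG. Each of the 25 was counted at its first listed start, which need not be the window described above. The shares over all promoters count every listed start. The SOX core ACAAT, or its reverse complement ATTGT, is in 24.6% of all promoters and in 5 of the 25. These matches describe letters and not binding sites.

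Of 19733 genes with an adjusted p in the authors' deposited table, 23.6% passed 0.05, with 11.6% higher and 12% lower in flotillin cells. Of the 15 KLF genes with an adjusted p, 4 passed, KLF9 and KLF10 higher and KLF8 and KLF11 lower. Of the 9 SOX genes with one, 5 passed, SOX5 higher and SOX4, SOX7, SOX9 and SOX15 lower. The other 12 genes, 2 KLF and 10 SOX, had too few reads for an adjusted p in that table. The KLF share, 26.7%, was near that of all genes, and the SOX share was 55.6% of the 9. The authors' deposited table puts the median log2 change at -0.05 over the tested KLF genes and at -0.29 over the tested SOX genes, beside -0.04 over all genes. Groups of recovered libraries did not overlap for 7 of 13 KLF and 4 of 7 SOX genes with a mean of at least 10, beside 45.1% of all such genes.

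**Figure D1:**
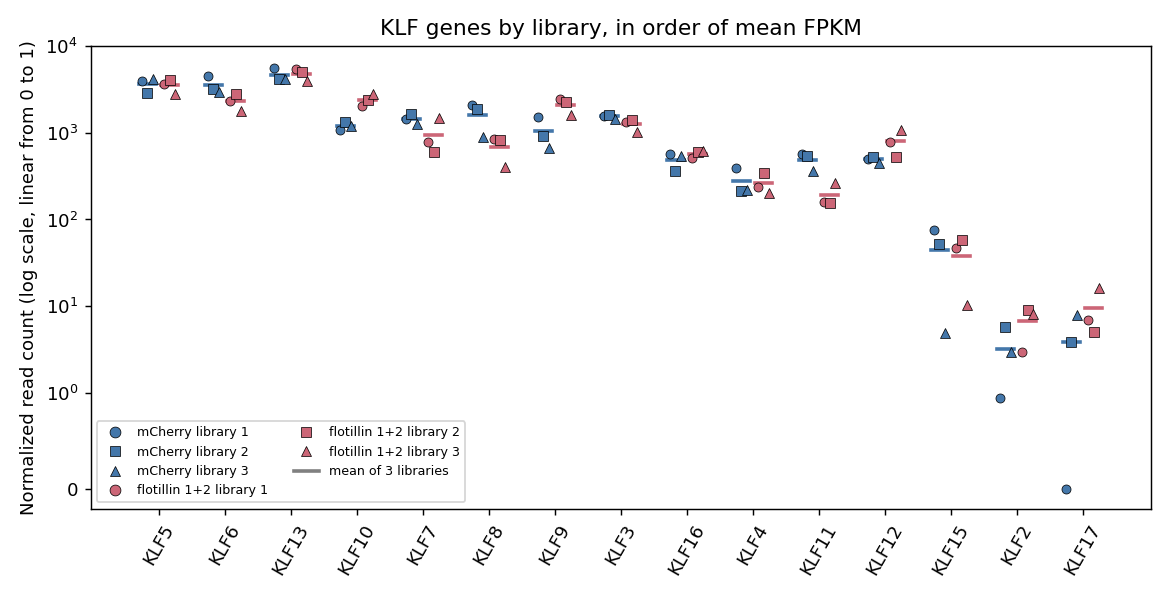
Normalized read counts of the 15 KLF genes with an adjusted p, for each of 3 mCherry (blue) and 3 flotillin (red) libraries, with marker shape for the library and bars for group means; the axis is logarithmic above 1. KLF10 and KLF9 sit higher in all flotillin libraries, KLF8 and KLF11 lower, and KLF15 is lowest in library 3 of both groups.

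The SIN3A-binding KLF genes held 3 of the 4 KLF calls and moved both ways. They are 5 of the 15 tested KLF genes, and 23.6% of all tested genes passed in the authors' deposited table. KLF10 (chromosome 8, 103661007 to 103668130, GRCh37), an early TGF-beta response gene that encodes a repressor, was at 1061, 1327 and 1204 normalized counts in control libraries and at 2023, 2359 and 2759 in flotillin libraries. The groups did not overlap, and the lowest flotillin library lay above the highest control library. KLF10 rose 1.99-fold (log2 0.97, adjusted p = 0.000549 in the authors' deposited table). In limma, fitted on log2 values of the solved libraries, the difference was 0.99 ± 0.18 (SE, adjusted p = 0.0118). Without flotillin library 2 limma's adjusted p was 0.055, and without library 3 of both groups it was 0.00507.

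KLF11 (chromosome 2, 10182976 to 10194963, GRCh37), the closest relative of KLF10 and another TGF-beta response gene, went the other way. Its control libraries held 566, 542 and 360.4 normalized counts and its flotillin libraries 161, 156 and 261. Library 3 was the lowest control and the highest flotillin library, and the groups still did not overlap. KLF11 fell 2.54-fold (log2 -1.28, adjusted p = 0.000772 in the authors' deposited table), and the log2 difference in limma was -1.35 ± 0.29 (SE) (adjusted p = 0.0186). Limma's adjusted p was 0.000327 without library 3 of both groups, but between 0.0646 and 0.0803 without control library 1 or 2 or flotillin library 1 or 2.

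KLF9 (chromosome 9, 72999503 to 73029540, GRCh37), known as a glucocorticoid and thyroid hormone response gene, was at 1536, 923 and 660.5 normalized counts in control and at 2461, 2269 and 1591 in flotillin libraries. The groups did not overlap, but the highest control library lay just under the lowest flotillin library. KLF9 rose 2.03-fold (log2 0.96, adjusted p = 0.0297 in the authors' deposited table). In limma the difference was 1.08 ± 0.32 (SE, adjusted p = 0.0481). It missed the threshold when control library 2 or 3 or any flotillin library was left out (limma's adjusted p from 0.0529 to 0.148), and with scaling to total reads (0.0661) or quantile normalization (0.0825). Without library 3 of both groups limma gave an adjusted p of 0.0111.

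Of the other SIN3A-binding genes, KLF13, a regulator known from lymphocytes and heart, was at 5609, 4158 and 4203 normalized counts in control and 5449.6, 4986 and 3909 in flotillin libraries. The groups overlapped, and the limma difference was 0.04 with a 95% interval from -0.45 to 0.52 on the log2 scale. KLF16 was at 567, 359.6 and 534 normalized counts in control and 511, 601 and 609 in flotillin libraries, again with overlap and with a limma difference of 0.26 with a 95% interval from -0.28 to 0.80. KLF14, an intronless gene, had 0 reads in all 6 libraries. For counting error only, a count of 0 allows up to 3 reads of the 55221123 in the control libraries and of the 54163731 in the flotillin libraries.

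Among the CtBP-binding repressors, KLF8 was lower in flotillin cells. KLF8 (chromosome X, 56258854 to 56314317, GRCh37), known as a repressor that can act on the E-cadherin gene, stood at 2059.7, 1871 and 895 normalized counts in control and at 840.1, 819 and 399 in flotillin libraries. Library 3 was at 0.456 times the mean of libraries 1 and 2 in control and at 0.481 times in flotillin cells, so that control library 3 lay just above flotillin libraries 1 and 2. KLF8 fell 2.35-fold (log2 -1.14, adjusted p = 0.0188 in the authors' deposited table). In limma the change of -1.22 ± 0.40 (SE) missed the threshold with all libraries (adjusted p = 0.0648). It passed without library 3 of both groups (-1.24, adjusted p = 0.000621), without control library 3 (0.012), and with a term for library 3 (0.000212). The KLF8 change missed the threshold when any other single library was left out (limma's adjusted p from 0.105 to 0.187). It also missed with scaling to total reads (0.0723), quantile normalization (0.0719) and voom weights (0.0688).

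KLF3 and KLF12, the other CtBP-binding members, had no overlap between groups but did not pass. KLF3 was at 1563, 1613 and 1440.4 normalized counts in control and at 1326, 1398 and 1024 in flotillin libraries, with adjusted p = 0.371 in the authors' deposited table. KLF12, a repressor of the AP-2 alpha gene, held 501, 529.8 and 452 normalized counts in control and 791, 532 and 1073 in flotillin libraries. Flotillin library 2 of KLF12 lay just above the highest control library. For KLF12 the authors' deposited table has log2 0.66 (adjusted p = 0.0979), and limma 0.64 (adjusted p = 0.12). Limma's adjusted p was 0.0456 with a term for library 3, while the difference was 0.33 (adjusted p = 0.266) without library 3 of both groups and 0.39 (0.322) without flotillin library 3.

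Of the 5 tested activator-type KLF genes, 0 passed in the authors' deposited table, beside 23.6% of all tested genes. A difference between KLF subgroups was not tested. KLF5 was the KLF gene with the highest level per length in both lines, at 128 FPKM in control and 110 in flotillin cells in the authors' deposited Tuxedo table. It held 3935, 2881 and 4106 normalized counts in control and 3628, 4103 and 2785 in flotillin libraries. The libraries overlapped fully, and the limma difference of -0.06 had a 95% interval from -0.57 to 0.46. KLF4, the differentiation factor, was at 391, 213 and 221 normalized counts in control and 238, 342 and 200.5 in flotillin libraries, with a limma difference of -0.06 and a 95% interval from -0.81 to 0.69.

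KLF6 and KLF7, close relatives within the activator type, had lower flotillin means. KLF6, an early response gene, was at 4562, 3227 and 2945 normalized counts in control and at 2308, 2777 and 1797 in flotillin libraries, without overlap. The authors' deposited table has adjusted p = 0.099 for KLF6. Limma gave 0.0895 with all libraries, 0.0411 when control library 3 was left out and 0.0414 when library 3 of both groups was. With a term for library 3 it gave 0.0134. When any other single library was left out, limma's adjusted p for KLF6 lay between 0.114 and 0.236. KLF7 was at 1434, 1622 and 1263 in control and at 785, 598 and 1459 in flotillin libraries, so that flotillin library 3 alone lay within the control range. KLF7 has adjusted p = 0.234 in the authors' deposited table. Limma without library 3 of both groups gave it a log2 difference of -1.15 with an adjusted p of 0.00176, and without flotillin library 3 alone one of -1.06 with an adjusted p of 0.0272. When any other single library was left out, limma's adjusted p for KLF7 lay between 0.121 and 0.377. With a term for library 3 it was 0.0661.

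The remaining KLF genes were low. KLF15, a metabolic regulator of muscle and liver that responds to glucocorticoids, held 75.9, 52.6 and 4.94 normalized counts in control and 47.0, 57.8 and 10.3 in flotillin libraries. Library 3 was the low one in both lines, at 0.0768 and 0.196 times the mean of the other libraries, a larger gap than that between the lines. The log2 difference of KLF15 was -0.16 in the authors' deposited table and 0.13 in limma, where its 95% interval ran from -2.41 to 2.66. KLF2, known from endothelial cells, had 10 reads in all control and 20 in all flotillin libraries, and KLF17, a germ line gene, 12 and 28. Their adjusted p-values are 0.472 and 0.403 in the authors' deposited table. KLF1, the erythroid factor, had 1 read, in a flotillin library.

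**Figure D2:**
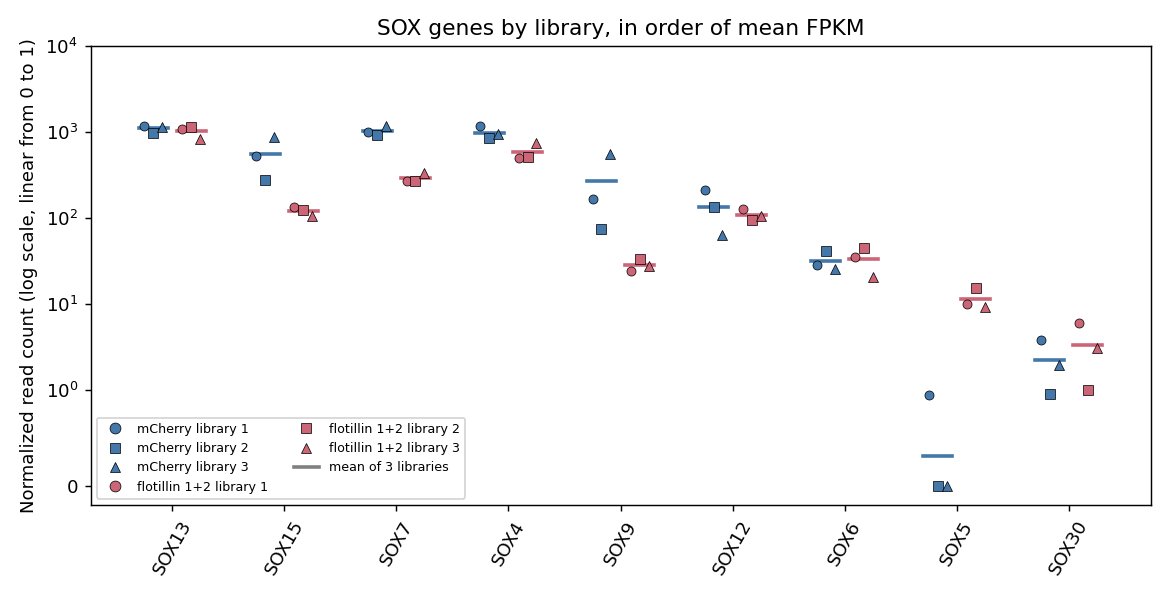
Normalized read counts of the 9 SOX genes with an adjusted p, for each of 3 mCherry (blue) and 3 flotillin (red) libraries, with bars for group means; the axis is logarithmic above 1. SOX15, SOX7, SOX4 and SOX9 sit lower in all flotillin libraries, with a wide spread of the control libraries for SOX9 and SOX15, while SOX5 has 1 control read.

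The order of the SOX genes by level per length differed between the lines. Summed over the 19 SOX genes, the authors' deposited Tuxedo table gives 60.3 FPKM in control and 26.6 in flotillin cells, against 296 and 254 FPKM for the 17 KLF genes. SOX15 held the first place in control cells with 19.7 FPKM, followed by SOX13 with 14.1, SOX7 with 13.5 and SOX4 with 8.60. In flotillin cells SOX13 came first with 12.1 FPKM, or 45.4% of the SOX sum, followed by SOX4 with 4.89, SOX15 with 4.35 and SOX7 with 3.61. These are 1 value per group and carry no error.

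SOX7 (locus on chromosome 8, 10581278 to 10697394, GRCh37) was the member with the smallest adjusted p. It belongs to the SoxF subgroup, known from endothelial development. Its control libraries held 998, 918 and 1186 normalized counts and its flotillin libraries 270.0, 272 and 331. The highest flotillin library was far below the lowest control library. SOX7 fell 3.55-fold (log2 -1.78, adjusted p = 5.03e-12 in the authors' deposited table), and the log2 difference in limma was -1.82 ± 0.20 (SE) (adjusted p = 0.00157). Leaving out each of the 6 libraries in turn kept limma's adjusted p between 0.00186 and 0.0126, and leaving out library 3 of both groups gave 0.000171. The lincRNA CTD-2135J3.3, which shares this locus, fell from 31.8 to 2.70 in the authors' deposited table (adjusted p = 3.63e-06), and the protein-coding PINX1 in the same locus was at 105 and 113 (adjusted p = 0.879). Reads where the genes overlap are uncertain. The other SoxF genes, SOX17 and SOX18, had 0 reads and, for SOX18, 2 control and 5 flotillin reads in all. Of the endothelial markers, ERG was at 0 in both groups, and KDR was at 641 and 588 and TEK at 52.1 and 36.4 normalized counts in control and flotillin cells.

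SOX15 (locus on chromosome 17, 7482922 to 7518160, GRCh37), the SoxG gene, stood at 527, 279 and 875 normalized counts in control and at 133, 123 and 105 in flotillin libraries. The control libraries were widely spread, and all lay above the flotillin libraries, which were close together. SOX15 fell 4.66-fold (log2 -2.05, adjusted p = 4.22e-06 in the authors' deposited table), and the log2 difference in limma was -2.07 ± 0.40 (SE) (adjusted p = 0.0131). Limma's adjusted p was 0.0546 without flotillin library 2. Without library 3 of both groups SOX15 was 3.15-fold lower and limma's adjusted p 0.00396. The authors' deposited Tuxedo table gives a similar log2 fold change, -2.18, with a q-value of 0.331. In that table SOX15 is in a locus with CD68, FXR2 and MPDU1, none of which passed in the authors' deposited count table.

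SOX9 (locus on chromosome 17, 70067184 to 70233344, GRCh37), a SoxE gene known from cartilage, gonad and epithelial progenitors, had the largest fall among the called members, and its control libraries differed widely. Control libraries held 166, 74.6 and 559.8 normalized counts and flotillin libraries 24.0, 33.4 and 27.8. Control library 3 alone was 4.65 times the mean of control libraries 1 and 2, while flotillin library 3 was within the range of its group. SOX9 fell 9.39-fold (log2 -2.72, adjusted p = 9.21e-06 in the authors' deposited table). Without control library 3 the fold was 4.24, and limma's log2 difference went from -2.72 (adjusted p = 0.0272) to -1.95 (0.0106). Without library 3 of both groups SOX9 was 4.19-fold lower (limma -1.94, adjusted p = 0.00594). Limma's adjusted p lay between 0.0669 and 0.096 when control library 1 or a flotillin library was left out, and was 0.0543 with voom weights. The other SoxE genes, SOX8 and SOX10, had 1 read each over all libraries.

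SOX4 (chromosome 6, 21593972 to 21598847, GRCh37), a SoxC gene of progenitor cells, was at 1161, 853 and 939.9 normalized counts in control and at 501, 516 and 746 in flotillin libraries. Flotillin library 3 was the closest to the control range and did not enter it. SOX4 fell 1.68-fold (log2 -0.72, adjusted p = 0.0381 in the authors' deposited table), and the log2 difference in limma was -0.76 ± 0.23 (SE) (adjusted p = 0.0476). Limma's adjusted p lay between 0.0793 and 0.164 without control library 1 or 2 or flotillin library 1 or 2, and was 0.00536 without library 3 of both groups. SOX12, another SoxC gene, did not pass, at 213, 133 and 63.2 normalized counts in control and 128, 95.2 and 106 in flotillin libraries, with adjusted p = 0.657 in the authors' deposited table. It shares its locus with NRSN2, which was at 176 and 405 in the authors' deposited table (adjusted p = 0.000851). SOX11, the third SoxC gene, had 0 reads.

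The SoxD genes, whose proteins lack an activation or repression domain and pair through a coiled coil, differed among themselves. SOX5 (chromosome 12, 23685232 to 24103865, GRCh37) had 1 read in all control libraries and 34 reads in all flotillin libraries. Its flotillin libraries held 10.0, 15.2 and 9.25 normalized counts, and control libraries 2 and 3 none. The ratio of the summed reads, scaled by the size factors, was 35.8 with an exact 95% interval from 6.0 to 1453, for counting error only. SOX5 has log2 2.80 (adjusted p = 0.000908) in the authors' deposited table, well below the log2 of that ratio. The authors' deposited Tuxedo table lists SOX5 as not tested, at 0.127 FPKM in flotillin cells. SOX6, which acts with SOX5 and SOX9 in cartilage, was at 31.8 ± 8.24 and 33.4 ± 12.1 normalized counts (SD, n = 3). SOX13 held 1169.8, 986 and 1148 normalized counts in control and 1090.1, 1150.1 and 839.9 in flotillin libraries. The SOX13 groups overlapped, and limma gave a difference of -0.11 with a 95% interval from -0.55 to 0.33.

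SoxB genes, the factors of pluripotent cells and neural progenitors, were at or near 0. SOX1, SOX3 and SOX14 had 0 reads in all libraries, SOX2 had 1 control read, and SOX21 had 1 control and 3 flotillin reads. The testis gene SOX30 held 7 reads in all control and 10 in all flotillin libraries. In all, 6 of the 36 genes had 0 reads in every library, and 18 reached a mean of 100 normalized counts in a group.

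**Figure D3:**
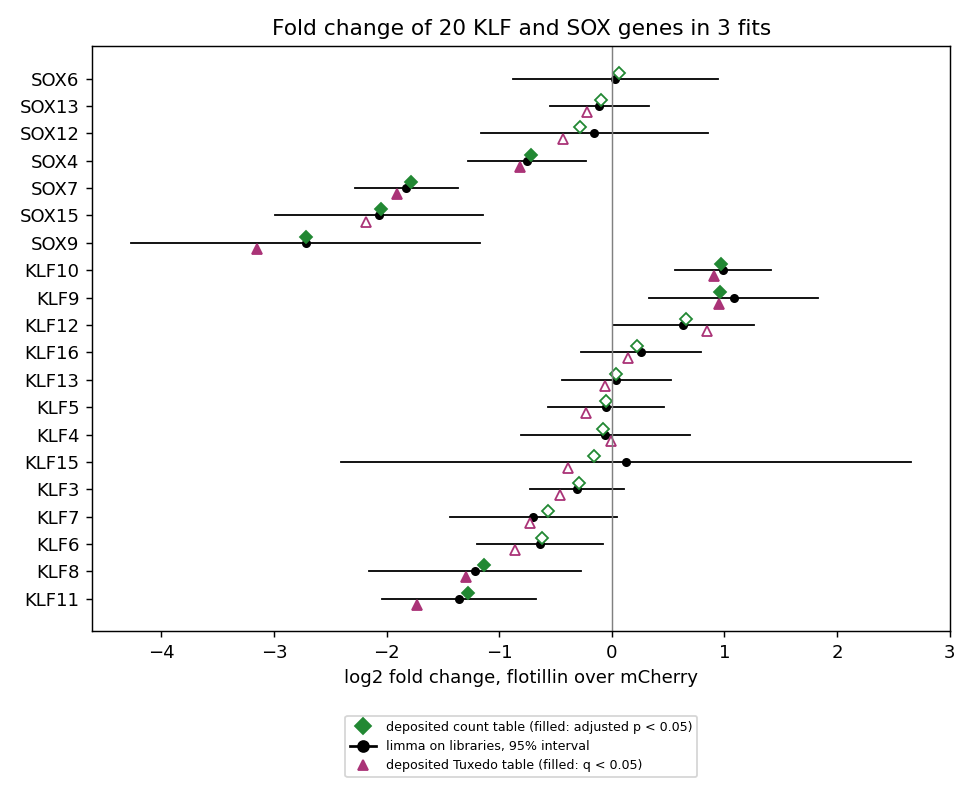
Log2 fold change of flotillin over mCherry for the 20 genes with a mean of at least 10: green diamonds for the deposited count table, purple triangles for the deposited Tuxedo table (filled where under 0.05) and black points with 95% intervals for limma. The intervals of SOX7, SOX9, SOX15, SOX4, KLF10, KLF9, KLF11, KLF8, KLF6 and KLF12 leave out 0, the last 3 without passing limma's threshold after adjustment.

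The 3 sources of fold changes gave the same direction for the called members they cover. The authors' deposited Tuxedo table passed 16.9% of 17022 tested genes at a q-value of 0.05, 6.93% higher and 10% lower. It called the same 4 KLF genes, with q-values from 0.00147 for KLF10 to 0.00892 for KLF9, and SOX4, SOX7 and SOX9 among the SOX genes. Limma passed 23.2% of 15839 genes (12.1% higher and 11.1% lower) and called KLF9, KLF10, KLF11, SOX4, SOX7, SOX9 and SOX15, while SOX5 was below its minimum mean. Without library 3 of both groups limma passed 44% of 15961 genes, 6 of 13 KLF genes (2 higher and 4 lower, with KLF6, KLF7 and KLF8 added and none lost) and the same 4 SOX genes of 7.

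**Figure D4:**
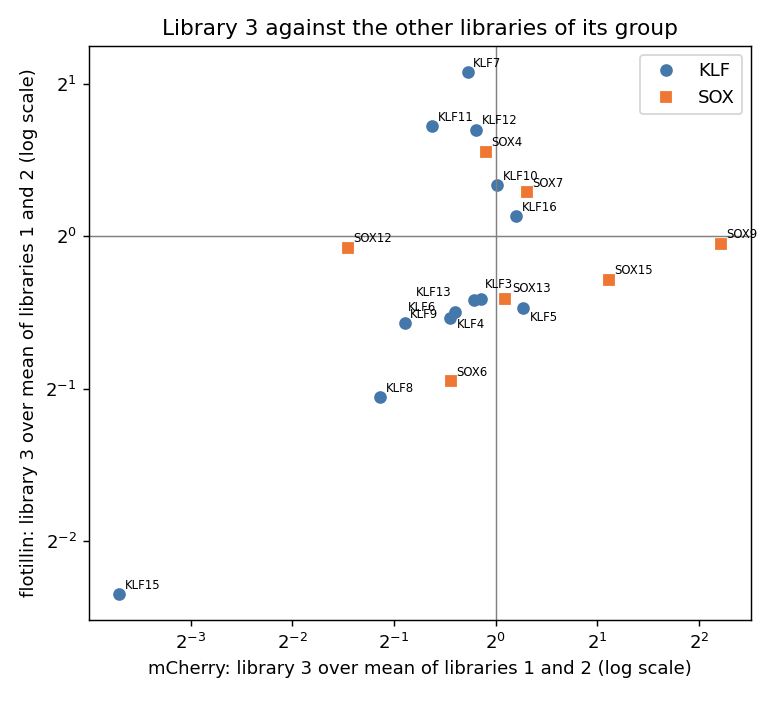
Level in library 3 divided by the mean of libraries 1 and 2, in mCherry (horizontal) and flotillin cells (vertical), both on log scales, for KLF (circles) and SOX genes (squares) with a mean of at least 10. KLF15 and KLF8 lie at the lower left, with library 3 low in both lines, and SOX9 lies at the right, high in control library 3 alone.

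Library 3 was the lowest or the highest of its group in both groups for several members, as for 52.7% of all genes with a mean of at least 10. It was the lowest library of both groups for 5 of 13 KLF genes, KLF3, KLF6, KLF8, KLF9 and KLF15, and the highest of both for 0, beside 24.6% and 28% of all genes. Among SOX genes it was the lowest of both groups for SOX6 and the highest for SOX7, of 7. Library 3 of both groups is also the one with the highest summed proliferation markers, whose part in these values was not tested.

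**Figure D5:**
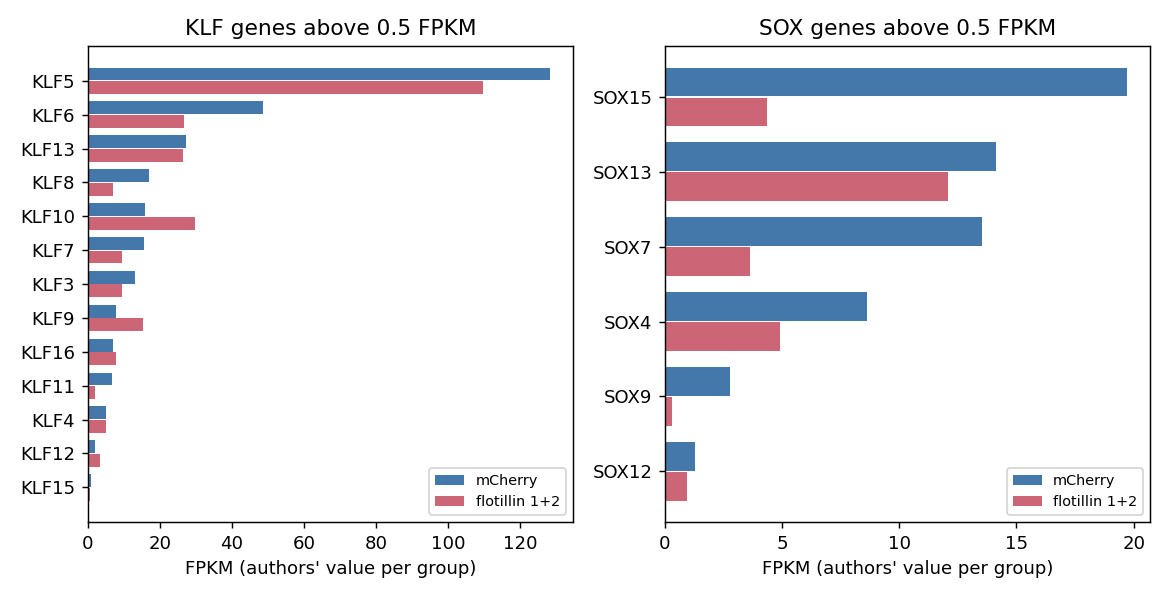
Authors' FPKM per group (mCherry blue, flotillin red) of the KLF and SOX genes above 0.5 FPKM, 1 value per group and no error. KLF5 leads the KLF genes in both lines at 128 and 110 FPKM, and SOX15 is at 19.7 and 4.35 FPKM.

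Relatives, partners and known targets were counted from lists in the authors' deposited table, beside its 11.6% of genes higher and 12% lower. Of 6 tested SP genes, the zinc finger relatives of the KLF family, 0 rose and 2 fell. SP6, known from skin and tooth epithelium, went from 194 ± 91.3 to 33.1 ± 4.79 normalized counts and SP1, a broadly expressed activator, from 6368 ± 896 to 3810 ± 576 (SD, n = 3), with adjusted p-values of 1.29e-07 and 0.0156 in the authors' deposited table. Of 12 KLF cofactor genes 1 rose and 1 fell. The acetyltransferase gene KAT2B went from 409 ± 97.6 to 697 ± 110 and the corepressor gene SIN3B from 2752 ± 1283 to 1313 ± 252 normalized counts (SD, n = 3), with adjusted p-values of 0.036 and 0.0392 in the authors' deposited table. Control library 3 of SIN3B held 1314 normalized counts, within the range of its flotillin libraries at 1540, 1356 and 1042. SIN3A itself had 1767 ± 352 and 2412 ± 198 normalized counts (SD, n = 3, adjusted p = 0.186 in the authors' deposited table).

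Of 12 tested genes known as KLF targets, 3 rose and 6 fell in the authors' deposited table. The list holds epithelial genes that also stand in the basal marker list, such as the laminin gene LAMA3. CDH1, the E-cadherin gene, fell (log2 -7.31), as did LAMA3 (log2 -3.87), and the cell cycle genes CCND1 and CDKN1A rose (log2 1.75 and 1.47 in the authors' deposited table). Among 11 tested SOX partner genes 2 rose and 1 fell. The Hedgehog effector gene GLI2 went from 1.90 ± 1.90 to 18.3 ± 9.11, MITF from 110 ± 33.2 to 228 ± 61.4 and POU5F1, a gene with near-identical pseudogene copies, from 93.6 ± 33.1 to 25.0 ± 0.69 normalized counts (SD, n = 3). Among SOX target genes COL2A1, the SOX9 target of cartilage, fell from 31.6 ± 17 to 0.34 ± 0.59 normalized counts (SD, n = 3), with adjusted p = 8.83e-08 in the authors' deposited table. Of 9 tested genes with other HMG boxes TOX4 alone rose, from 1341 ± 120 to 2002 ± 198 normalized counts (SD, n = 3, adjusted p = 0.0393 in the authors' deposited table).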

How the data were processed

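RNA was measured in 3 mCherry and 3 flotillin libraries, grouped by the titles in the labels. The submitters' processing notes name bcl2fastq, HISAT2 2.1.0, HTSeq 0.9.1, DESeq2 1.18.1 and GRCh37; the annotation release and the strand setting of the counting were not given in the sources used here, so reads where genes overlap are uncertain. One deposited table holds signal columns, the authors' group means of size-factor-normalized counts, with the authors' log2 fold changes and p-values per the file headers. The other, a Tuxedo table, holds the authors' FPKM per group with log2 fold changes, a test score and q-values, per the file headers; its locus column gave positions, counted from 1. Each mean was deposited with 15 significant digits, so a search over whole reads solved 99.56% of control and 99.52% of flotillin means above 0, each with a single solution; 172 genes with a group mean of 20000 or more were left out. Altered means had a solution in 0.1% and 0.2% of cases. The main result is the authors' adjusted p under 0.05. As a second fit, limma 3.58.1 in R 4.3.3 (trend, robust, Benjamini-Hochberg adjustment) ran on log2(normalized count + 1) of genes with a mean of at least 10, and was tested on simulated data. Alternatives were other pseudocounts, filters and scalings, each library left out, and, chosen after seeing the data, library 3 left out or given a term, and voom weights. Named genes are members with an adjusted p or q under 0.05 or a group mean of at least 100, and at most 4 per list by adjusted p. Members and lists were chosen with earlier results of these data known. Subgroups of KLF and SOX genes are background knowledge. Promoters came from RefSeq (25 of 36 members matched by symbol); windows overlapping a GENCODE exon and windows on chromosome 8 are not shown. Figures were drawn with matplotlib 3.10.9 and the search ran in numba 0.67.0; other steps used scipy 1.17.1, pandas 2.3.3 and Python 3.11.15. Results for 2 genes of the marker and target lists are not reported here.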

Additional observations from a re-analysis of the deposited data

How the results depend on the processing

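No paired analysis was possible because the deposited values are group means and the recovered libraries carry no replicate numbers. Of the 4 KLF calls in the authors' deposited table, 2 passed an adjusted p of 0.01, and of the 5 SOX calls 3 passed a q-value of 0.05 in the Tuxedo table; over all genes these settings gave 2878 and 2885 calls in place of 4661. Limma called 3 KLF and 4 SOX genes, and leaving out 1 library at a time gave 0 to 4 KLF calls, 1 to 4 SOX calls and 978 to 6382 calls over all genes in place of 3676. Without library 3 of both groups limma called 6 KLF genes and 7023 genes in all, and with a term for library 3 it called 6 and 7270. Among the 19 named members, these differences turned direction, none of which had passed: KLF4 without control library 1 (0.22) and flotillin library 3 (0.11), KLF5 without control library 1 (0.0091), control library 3 (0.0398), flotillin library 3 (0.10) and library 3 of both groups (0.20), SOX12 without control library 1 (0.25), SOX13 without flotillin library 3 (0.028) and library 3 of both groups (0.0601), and KLF13 in the Tuxedo table (-0.056), with scaling to total reads (-0.0057) and without control library 2 (-0.0359), control library 3 (-0.0283) and flotillin library 1 (-0.0627). Pseudocounts, filters, voom and the other scaling kept each family's count within 1.5 times of the limma count. The called members could still change. With no filter beyond a mean above 0, limma lost SOX4 (adjusted p = 0.0615) and gained SOX5 (log2 3.29, adjusted p = 0.00252). Members under about 20 reads per group were limited by depth.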
